A study of Equus caballus with 25 samples.

Results

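The endometrium, the lining of the uterus, was compared between day 16 and day 12 after ovulation in 5 normally cycling Bavarian Warmblood mares. The 10 arrays were chosen by their titles, which give the day and the mare, from 25 one-colour Agilent arrays in all. Each mare gave 1 transcervical biopsy on each of days 0, 3, 8, 12 and 16, with day 0 the day of ovulation. The labels place day 16 in early oestrus, at the beginning of the ovulatory phase, and day 12 in late dioestrus, the late luteal phase. They also state that biopsies were taken in different cycles and that 2 biopsies of the same cycle lay at least 9 days apart. The day 16 and day 12 biopsies of a mare, 4 days apart in the cycle, were therefore from different cycles, and each pair of arrays shares a mare but not a cycle. The labels name no treatment. The biopsies were whole tissue, so that fewer cells of a type and less RNA per cell cannot be told apart.

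In the luteal phase the corpus luteum secretes progesterone, under which the equine endometrial glands make proteins for a possible embryo. When no pregnancy is recognised, the endometrium releases prostaglandin F2 alpha, the corpus luteum regresses and progesterone falls. The next follicles then secrete oestrogen, the uterine mucosa becomes oedematous and the mare returns to oestrus. In the normal cycle of a mare, days 16 and 12 stand on either side of this change.

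Levels are log2 processed signals minus the log2 75th percentile of the same array, so that 0 is the signal of that percentile and 1 unit is a 2-fold step. A level belongs to its probe and was not set against the level of another probe. The change is the day 16 level minus the day 12 level, with the standard error (SE) of a limma model of all 25 arrays with day and mare as terms. That model takes 1 spread of a probe for all days, so the SE is not that of the paired differences alone. A change was called where the Benjamini-Hochberg adjusted p over all probes was under 0.05. Of 35770 probes tested, 3996 passed (11.2%), of which 1817 were higher (5.08%) and 2179 lower (6.09%) at day 16. At least 2-fold changes were found in 936 higher and 1250 lower probes, and 3514 of the 3996 moved the same way in all 5 mares. Between days 16 and 12 the median change of all probes was -0.07. The arrays of both days did not overlap for 2345 probes (6.56%).

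The 75th percentile of the signal was between 875 and 3701 at day 16 and between 1509 and 2168 at day 12, and no spot was saturated. Between 73.2% and 86.2% of the spots were well above background at day 16 and between 79.9% and 88.1% at day 12. The median SD between mares was 0.51 at day 16 and 0.35 at day 12, against 0.29 to 0.45 on the other days. Day 16 thus had the widest spread, and an SE from 1 spread for all days can be too small for this contrast. The day 16 and day 12 arrays of mares 1, 3 and 4 lay on 1 slide for each mare, and those of mares 2 and 5 did not. The changes of mares 1, 3 and 4 given below are therefore also the values within a slide. With slide as a further block 1733 probes passed, and with scan day as a further block 2093 passed. A symbol could be given to 514 tested genes, and 3829 of the 3996 called probes have none here. Of the 514 named genes 56 rose, 26 fell and 432 did not pass, with a median change of -0.02, and the 82 called genes were 16.0% of those tested. By direction, 10.9% rose and 5.1% fell. The counts of each list below stand beside these shares, and whether a list differs from them was not tested. The named genes are few and were set by the array's annotation, so that many genes of each group below were not analysed here.

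**Figure D1:**
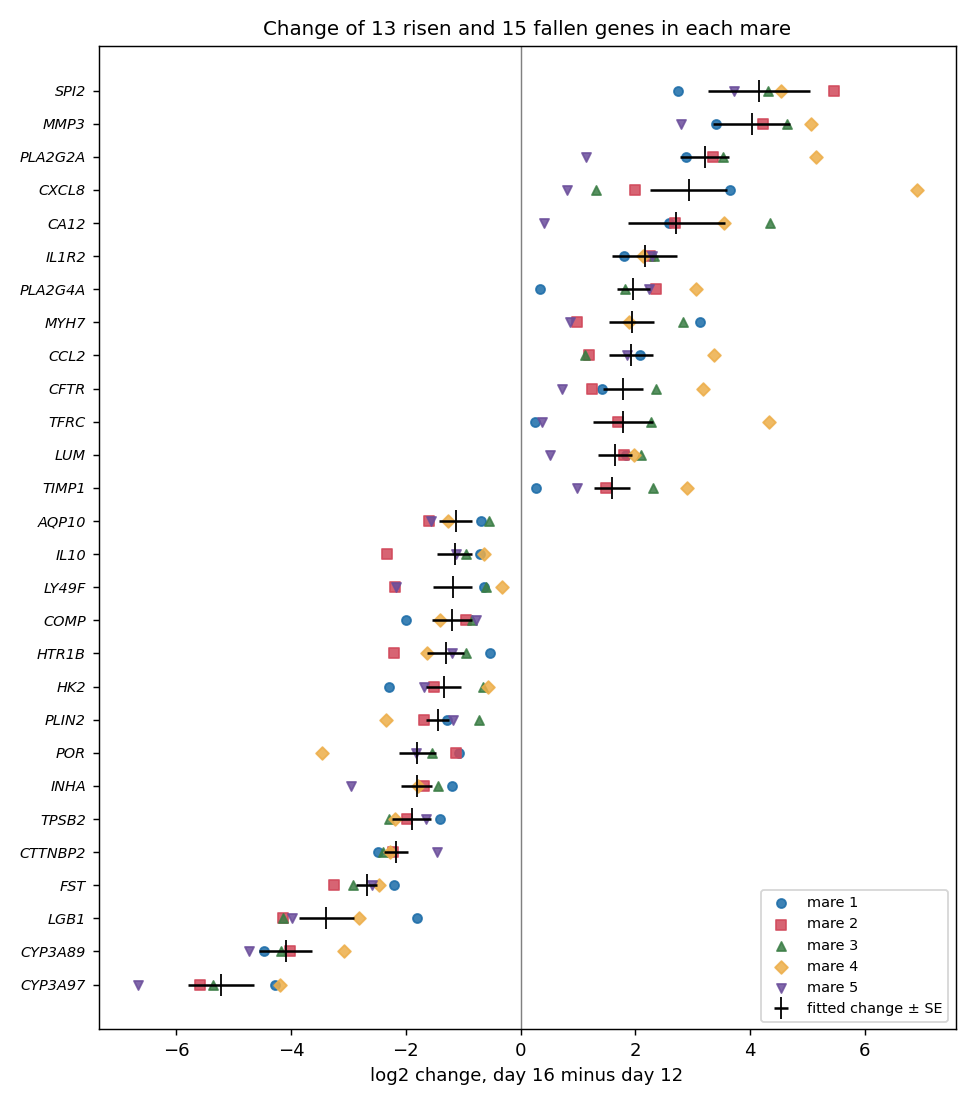
Change of 13 of the 15 largest rises and the 15 largest falls among named genes that moved the same way in all 5 mares. Points are the log2 differences of day 16 minus day 12 in single mares, by colour and shape, and black bars are the fitted change ± SE. All points of the risen genes lie right of 0 and all points of the fallen genes lie left of it, and within genes such as CXCL8 the mares differ by several log2 units.

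Among genes of the prostaglandin and oxytocin system, both measured phospholipases A2 rose and a prostaglandin E2 receptor fell, while the cyclooxygenase PTGS2 did not pass. Phospholipases A2 release fatty acids from membrane lipids, among them arachidonic acid, the precursor of prostaglandins. The secreted phospholipase PLA2G2A had a level of 4.51, 5.70, 4.89, 5.45 and 4.95 in mares 1 to 5 at day 16, against 1.63, 2.35, 1.36, 0.30 and 3.82 at day 12. Every day 16 array lay above every day 12 array, and the rise was smallest in mare 5, where day 12 was already high. The change was 3.21 ± 0.42 (SE of the model, n = 5 mares), a 9.24-fold rise, with an adjusted p of 8.49e-05 by limma. The cytosolic phospholipase PLA2G4A had -0.06, 0.59, 0.18, 1.48 and 0.53 at day 16 and -0.40, -1.77, -1.64, -1.58 and -1.71 at day 12. Again the groups did not overlap, although mare 1 changed by only 0.34, with the highest level at day 12 and the lowest at day 16. The change of PLA2G4A was 1.96 ± 0.29, with an adjusted p of 0.00021 by limma.

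The prostaglandin E2 receptor PTGER2 fell by 1.22 ± 0.37 on the log2 scale, with an adjusted p of 0.0369 by limma. Its levels were 0.05, 0.37, 0.75, 3.11 and 1.26 at day 16, against 2.27, 2.21, 2.16, 2.79 and 2.23 at day 12. Mare 4 went the other way by 0.32, and the groups overlapped through that mare. This call did not hold in 13 of the 15 refits that left out 1 mare or 1 array of either day, with adjusted p up to 0.185, and held without mare 4 and without the day 16 array of mare 4. Its adjusted p was 0.0553 without the mare as a block, 0.0967 in a fit of the 10 arrays alone, 0.149 with slide and 0.158 with scan day as a further block. Further probes of PTGER2 had changes of -1.22, -1.23, -1.24, -1.26 and -1.23. Their adjusted p was 0.0459, 0.0484, 0.0620, 0.0335 and 0.0429 by limma, and they were not read in the refits. PTGS2, the inducible cyclooxygenase that makes prostaglandin H2, had 1.35, 0.12, 0.42, 2.88 and 1.12 at day 16 and 1.25, 1.12, 1.30, 1.39 and 0.36 at day 12. It was higher at day 16 in 3 mares and lower in 2, with a change of 0.09 ± 0.47 and an adjusted p of 0.922. Further probes of PTGS2 had larger changes, of 1.39 (adjusted p = 0.249 by limma) and 0.72 (adjusted p = 0.437), and did not pass. PTGFR, the receptor of prostaglandin F2 alpha, was lower at day 16 in all 5 mares by between 0.16 and 1.51, but its change of -1.03 ± 0.37 did not pass (adjusted p = 0.0786 by limma). In all, 10 of 31 listed genes of this system were tested, 2 rose and 1 fell by limma, against 2 higher and 5 lower at an unadjusted p under 0.05. Their median change was -0.20, against -0.07 over all probes. The prostaglandin E synthase PTGES had -0.81 and the prostaglandin-degrading enzyme HPGD 0.25, and neither passed. PTGDS had -0.49 and the brightest probe of AKR1C1 -0.94, also without passing, and another probe of AKR1C1 is described under other observations.

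Among genes of steroid synthesis and cytochromes P450, CYP3A97, CYP3A89 and POR fell. CYP3A97 and CYP3A89 are cytochromes P450 of the 3A family, whose members oxidise steroids and drugs. CYP3A97 had -9.16, -9.29, -8.35, -7.56 and -9.18 at day 16, against -4.89, -3.70, -2.99, -3.37 and -2.50 at day 12. The probe was well above background in all 5 mares at day 12 and in 1 of 5 at day 16, and the groups lay far apart. Its change was -5.22 ± 0.58, with an adjusted p of 2.04e-05 by limma. With normexp, another background correction, the change of this dim probe was -2.03 (adjusted p = 0.000181). CYP3A89 had -6.62, -5.11, -4.55, -2.98 and -4.35 at day 16 and -2.14, -1.10, -0.38, 0.10 and 0.38 at day 12, and these also did not overlap. It fell by 4.09 ± 0.46, a 17.1-fold fall (adjusted p = 2.27e-05), with a change of -3.17 under normexp. The 3A genes are close paralogues, and cross-hybridization between them was not tested. POR, the reductase that passes electrons to microsomal cytochromes P450, had 0.57, 0.32, 0.86, 0.29 and 0.36 at day 16 and 1.63, 1.45, 2.40, 3.74 and 2.19 at day 12. The levels lay closer together at day 16 than at day 12, without overlap, and the fall was 1.80 ± 0.32 (adjusted p = 0.00109). Of 15 tested genes among 36 listed for steroid synthesis and cytochromes P450, 3 fell and 0 rose by limma, and at an unadjusted p under 0.05 these were 4 lower and 0 higher. Their median was -0.57. The 12 others did not pass, among them the aromatase CYP19A1 with -0.90 and the oestrogen sulfotransferase SULT1E1 with -0.48.

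Follistatin and the inhibin alpha subunit fell. FST encodes follistatin, a secreted protein that binds and blocks activin, and had the smallest p of the named genes. Its level was -0.18, -0.27, 0.03, 0.51 and 0.38 at day 16, against 2.03, 2.97, 2.94, 2.98 and 2.96 at day 12. The day 16 arrays lay within 1 log2 unit and well under all day 12 arrays, and 4 of the 5 day 12 arrays were nearly equal. The fall was 2.69 ± 0.19 on the log2 scale, 6.43-fold, with an adjusted p of 4.92e-08 by limma. INHA, the alpha subunit of inhibin, had -6.25, -5.05, -6.24, -7.74 and -6.83 at day 16 and -5.05, -3.36, -4.81, -5.95 and -3.88 at day 12. The groups overlapped, but each mare was lower at day 16, and the fall was 1.81 ± 0.27 (adjusted p = 0.000208). With normexp the change of INHA was -0.85 (adjusted p = 0.0247). INHBA, a beta subunit shared by activin and inhibin, did not pass, with a change of -0.40 ± 0.50. Of 33 listed genes 5 were tested, 2 fell and 0 rose by limma, and the same counts were found at an unadjusted p under 0.05. Their median was -0.63.

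**Figure D2:**
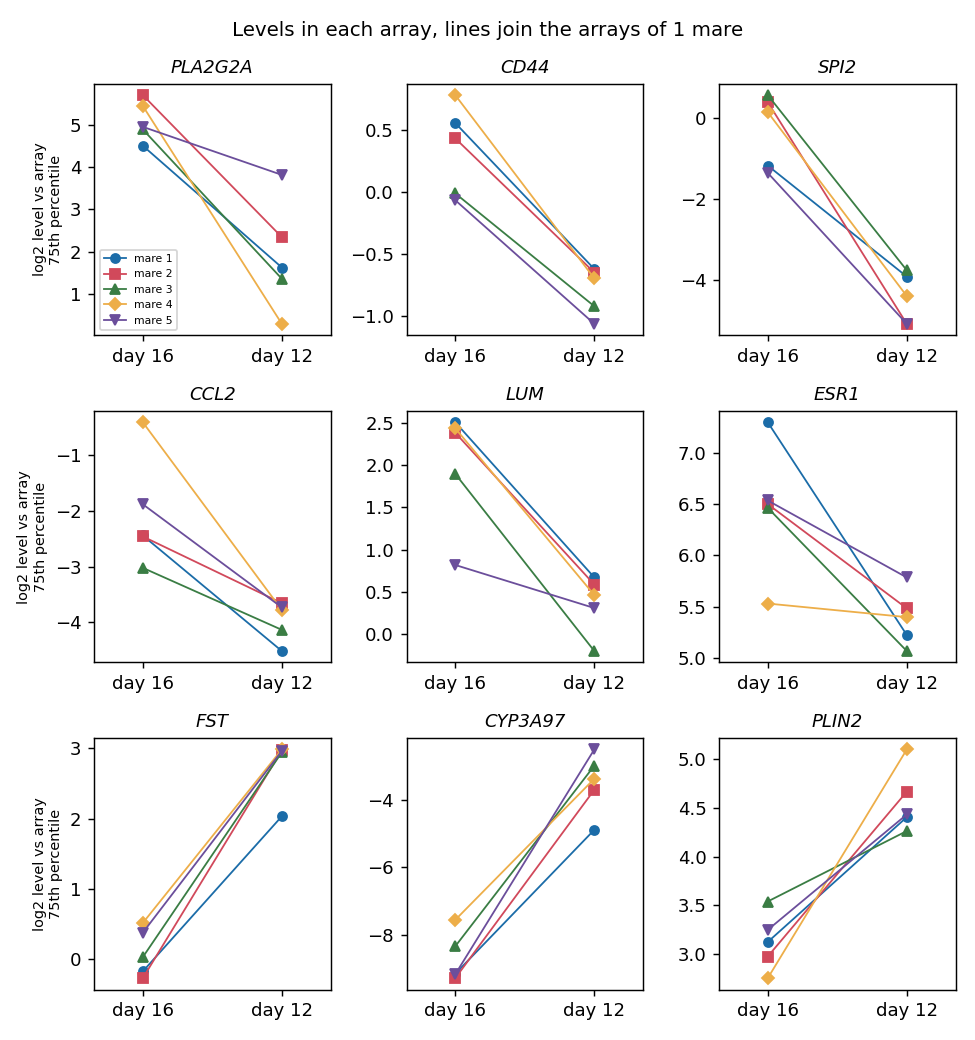
Levels of 9 genes in each array, as log2 signal minus the 75th percentile of the array, with day 16 left of day 12 and lines joining the arrays of a mare. PLA2G2A, CD44, SPI2, CCL2 and LUM were higher and FST, CYP3A97 and PLIN2 lower at day 16 without overlap, and ESR1 was higher in all 5 mares with overlap through mare 4.

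Among secreted proteins of the uterus, a lipocalin fell and the abundant lipocalin P19 did not pass. Lipocalins carry small fat-soluble molecules. LGB1, a beta-lactoglobulin, had -7.60, -9.12, -9.50, -7.56 and -7.60 at day 16, against -5.79, -4.97, -5.35, -4.73 and -3.61 at day 12. All 5 day 12 arrays and 1 day 16 array were well above background, and the groups did not overlap. The fall was 3.38 ± 0.48 (adjusted p = 0.000148 by limma), and with normexp the change of this dim probe was -0.97 (adjusted p = 0.0292). Cross-hybridization with its close copies was not tested. P19, the horse uterocalin, which the endometrium secretes towards the conceptus, had 4.81, 6.87, 5.54, 6.73 and 7.80 at day 16 and 7.11, 7.60, 7.34, 7.55 and 7.84 at day 12. It was lower at day 16 by 2.30 in mare 1 and by 0.03 in mare 5, and the mares at day 16 spread over an SD of 1.18 against 0.27 at day 12. Its change of -1.14 ± 0.48 did not pass (adjusted p = 0.135). Of 37 listed secreted proteins 9 were tested, 1 rose and 2 fell by limma, against 1 higher and 4 lower at an unadjusted p under 0.05. Their median was 0.22. The riser was B2M, described with antigen presentation, and the fallers were LGB1 and FST. GPX3, named here after its values were seen, had -0.96 and did not pass (adjusted p = 0.0976 by limma). Its further probes were also lower. Those with -1.20 (adjusted p = 0.0336) and -1.16 (adjusted p = 0.0370) passed, and those with -1.17, -1.11 and -1.10 did not.

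The matrix protease MMP3 and the inhibitor TIMP1 rose. MMP3, or stromelysin 1, degrades several matrix proteins and had -3.66, -4.95, -4.95, -5.02 and -6.62 at day 16, against -7.05, -9.17, -9.59, -10.07 and -9.43 at day 12. It was well above background in all 5 mares at day 16 and in 1 of 5 at day 12, and the groups did not overlap. The rise was 4.02 ± 0.67 (adjusted p = 0.00061 by limma). With normexp the change of this dim probe was 0.83 (adjusted p = 0.177). TIMP1, a secreted inhibitor of matrix metalloproteases, had 1.01, 2.46, 3.05, 3.62 and 2.21 at day 16, against 0.74, 0.98, 0.74, 0.72 and 1.22 at day 12. All mares were higher at day 16, mare 1 by only 0.27, which brought the groups to overlap. It rose by 1.59 ± 0.31 (adjusted p = 0.00241), and in a fit of the 10 arrays alone the adjusted p was 0.0602. In the list of matrix proteases and their inhibitors 10 of 36 genes were tested, 2 rose and 0 fell by limma, and at an unadjusted p under 0.05 these were 3 higher and 1 lower. Their median was -0.03.

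SPI2, a serine protease inhibitor of the alpha-1-antitrypsin kind, had the largest rise among the named genes that moved alike in all 5 mares. Its level was -1.18, 0.39, 0.56, 0.14 and -1.36 at day 16, against -3.91, -5.08, -3.76, -4.39 and -5.08 at day 12, without overlap. The rise was 4.15 ± 0.88 (adjusted p = 0.00449), and cross-hybridization with related inhibitors was not tested.

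Of 11 tested genes among 44 of the extracellular matrix, 3 rose and 1 fell, with a median of 0.31. Lumican (LUM), a proteoglycan that orders collagen fibrils, had 2.51, 2.38, 1.90, 2.44 and 0.82 at day 16 and 0.67, 0.59, -0.20, 0.46 and 0.31 at day 12. Mare 5 had the lowest day 16 level and the smallest rise, of 0.51, yet the groups did not overlap. LUM rose by 1.64 ± 0.30 (adjusted p = 0.00145 by limma), and all 5 further probes of the gene were called in the same direction. SPARC, a collagen-binding matricellular protein, rose by 0.66 ± 0.15 (adjusted p = 0.00908), without overlap. Its call did not hold without mare 3 (0.54, adjusted p = 0.0887), in the 10 arrays alone (adjusted p = 0.0995) or with slide as a further block (adjusted p = 0.0503), and 2 of its 7 further probes were called, all 7 being higher. The collagen chain COL5A2 rose by 0.59 ± 0.18 (adjusted p = 0.0423), and COMP, a cartilage matrix protein, fell by 1.19 ± 0.35 (adjusted p = 0.0336). The calls of these 2 genes did not hold in 13 and 11 of the 15 refits, with adjusted p up to 0.122 and 0.105. That of COL5A2 held only without the day 16 array of mare 1 or of mare 5, and that of COMP only without the day 16 array of mare 3, 4 or 5 or the day 12 array of mare 2. Without the mare block their adjusted p was 0.0813 and 0.0824. With slide as a further block it was 0.197 for COL5A2 and 0.0534 for COMP, and with scan day 0.171 and 0.0526. The adjusted p of COL5A2 was also 0.116 in the 10 arrays alone, 0.057 without the filter on dim probes and 0.074 with an intensity trend, and with normexp its change was 0.33 (adjusted p = 0.21). A further probe of COMP had -1.21 and did not pass (adjusted p = 0.280 by limma).

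Of the chemokines and cytokines, CCL2, CXCL10, CXCL8, CXCL6 and the decoy receptor IL1R2 rose, and the interleukins IL10 and IL5 fell. CCL2, which attracts monocytes, had -2.44, -2.46, -3.02, -0.41 and -1.88 at day 16, against -4.51, -3.65, -4.13, -3.78 and -3.73 at day 12. The groups did not overlap, mare 4 was highest at day 16, and the rise was 1.92 ± 0.39 (adjusted p = 0.00303 by limma). CXCL10, an interferon-induced chemokine for T cells, had -1.38, -1.70, -2.32, -1.12 and -3.14 at day 16 and -2.47, -3.70, -4.10, -3.35 and -3.69 at day 12. Mare 5 at day 16 lay under mare 1 at day 12, and each mare was higher at day 16. CXCL10 rose by 1.53 ± 0.31 (adjusted p = 0.00335).

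CXCL8, or interleukin 8, the main chemokine for neutrophils, was well above background in 3 of 5 mares at day 16 and in 0 of 5 at day 12. Its measured levels were -6.30, -6.92, -8.30, -2.96 and -8.36 at day 16, against -9.95, -8.90, -9.61, -9.86 and -9.17 at day 12. Mare 4 had the highest level by over 3 log2 units, and mares 3 and 5 stood close to the day 12 arrays. The fitted change was 2.93 ± 0.67 (adjusted p = 0.00723 by limma). Since it was at background at day 12, its day 12 level was also taken as each array's lowest signal among probes well above background. The probe's own level was kept where that was higher. On that reckoning the day 16 mean was 1.98-fold higher. This mean includes mares at background at day 16, so that the fold is not a firm lower bound. Without mare 4 the change of CXCL8 was 1.94. With normexp the change was 0.60 (adjusted p = 0.22), and in a fit of the 10 arrays alone the adjusted p was 0.0906.

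CXCL6, a related chemokine for neutrophils, had -3.37, -4.87, -3.80, -1.59 and -8.70 at day 16 and -6.34, -7.01, -7.17, -8.18 and -7.71 at day 12. It was higher in mares 1 to 4 and lower in mare 5, with a change of 2.82 ± 0.82 (adjusted p = 0.0315 by limma). The call held only without mare 5 and without the day 16 array of mare 2 or 5 or the day 12 array of mare 1 or 5, and without mare 4 the change was 1.87 (adjusted p = 0.0749). Without the mare block its adjusted p was 0.0713 and in the 10 arrays alone 0.116, and with normexp its change was 1.37 (adjusted p = 0.0188). IL1R2, a decoy receptor that binds interleukin 1, had -5.74, -5.87, -5.25, -2.95 and -6.16 at day 16, against -7.54, -8.12, -7.58, -5.07 and -8.45 at day 12. Mare 4 stood above the other mares on both days, and the rises in the 5 mares were alike, between 1.81 and 2.33. The fitted rise was 2.16 ± 0.56 (adjusted p = 0.0165). It was well above background in 1 of 5 mares at day 12, and with normexp the change was 0.59 (adjusted p = 0.109). Its call did not hold without mare 2, 3 or 5, without the day 16 array of mare 4 or without the day 12 array of mare 5, with adjusted p up to 0.0765, nor with slide (1.67, adjusted p = 0.209) or scan day (1.81, adjusted p = 0.117) as a further block.

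IL10, an interleukin that dampens inflammation, had -4.12, -6.03, -4.63, -4.82 and -5.58 at day 16 and -3.41, -3.69, -3.67, -4.19 and -4.45 at day 12. It fell by 1.15 ± 0.30 (adjusted p = 0.0189 by limma), with overlap and with the largest fall in mare 2. The call did not hold without mare 2, 3 or 5, without the day 16 array of mare 2 or without the day 12 array of mare 5 (adjusted p up to 0.0973), and without the mare block the adjusted p was 0.0951. It was 0.0605 in the 10 arrays alone, 0.101 with slide and 0.0966 with scan day as a further block, and with normexp the change was -0.68 (adjusted p = 0.0365). Further probes of IL10 had changes of -0.98, -0.87, -0.96 and -0.90. Their adjusted p was 0.0188, 0.0472, 0.0511 and 0.0522 by limma. IL5, the interleukin that sustains eosinophils, also fell, by 0.72 ± 0.16 (adjusted p = 0.00703), and is named here after its values were seen. IL5 was not read singly in the refits. In all, 22 of 56 listed chemokine and cytokine genes were tested, 5 rose and 2 fell, with a median of 0.15. TNF, the central inflammatory cytokine tumour necrosis factor, had -0.59 and did not pass. IL1RN, which blocks the interleukin 1 receptor, had 2.79 and also did not pass (adjusted p = 0.0825).

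Of 10 tested genes among 51 of antigen presentation and the interferon response, 2 rose and 0 fell by limma, against 3 higher and 0 lower at an unadjusted p under 0.05. Their median was 0.51. B2M, the light chain of MHC class I molecules, had 5.79, 5.90, 5.68, 6.08 and 5.59 at day 16 and 5.26, 5.51, 4.94, 4.91 and 4.82 at day 12. The groups did not overlap, by a narrow margin, and B2M rose by 0.72 ± 0.18 (adjusted p = 0.0126). This call did not hold without mare 3 (0.71, adjusted p = 0.0528) or mare 5 (0.70, adjusted p = 0.0663). Its adjusted p was also 0.0686 in the 10 arrays alone, 0.101 with slide and 0.0703 with scan day as a further block. The interferon-induced antiviral genes OAS1 with 0.41 and MX1 with 0.28 did not pass. Among 14 tested of 51 genes of innate defence 1 rose and 0 fell by limma, against 2 higher and 1 lower at an unadjusted p under 0.05, with a median of 0.05. The riser was TLR3, a receptor for double-stranded RNA, at 0.68 ± 0.21 (adjusted p = 0.0431). It held in 1 of the 15 refits, the one without the day 16 array of mare 5, and its adjusted p was 0.0675 without the mare block and 0.0785 in the 10 arrays alone. It was 0.0574 without the filter on dim probes, 0.14 with slide and 0.208 with scan day as a further block.

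ESR1, the oestrogen receptor alpha, rose. It had 7.30, 6.50, 6.47, 5.53 and 6.54 at day 16 and 5.22, 5.48, 5.07, 5.40 and 5.78 at day 12, and mare 4 rose by only 0.13. The rise was 1.08 ± 0.26 (adjusted p = 0.0116 by limma). All 5 further probes of ESR1 were higher and none of them passed, with changes between 1.18 and 1.27 and adjusted p between 0.0655 and 0.0876. The call did not hold without mare 2 (1.09, adjusted p = 0.0585) or mare 3 (adjusted p = 0.0751), nor in a fit of the 10 arrays alone (adjusted p = 0.0774) or with slide as a further block (adjusted p = 0.0845). Of 29 listed hormone receptors and response genes only 3 were tested, and the other two did not pass, namely the retinoic acid receptor RARB with 0.51 and the progesterone-binding membrane protein PGRMC1 with -0.40. The progesterone receptor PGR and the oxytocin receptor OXTR had no named probe among those tested.

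The receptor of hepatocyte growth factor MET had 3.34, 4.78, 4.73, 5.02 and 5.02 at day 16, against 3.35, 3.31, 3.88, 3.37 and 3.56 at day 12. It rose by 1.08 ± 0.28 (adjusted p = 0.0154 by limma), in mares 2 to 5, and mare 1 was level with day 12. Without mare 2, 3 or 5 the adjusted p was between 0.0608 and 0.104. It was 0.0686 in the 10 arrays alone, 0.104 with slide and 0.105 with scan day as a further block. Further probes of MET had changes of 1.25 (adjusted p = 0.0591 by limma) and 1.31 (adjusted p = 0.0355). The other tested growth factor genes, IGF1, IGF2 and BDNF, did not pass, with a median over these 4 of 37 listed genes of -0.35. RSPO3, a secreted enhancer of WNT signalling, rose by 1.19 ± 0.34 (adjusted p = 0.029), by between 0.29 and 1.94 in the 5 mares. Its call held only without mare 1 or 4, without the day 16 array of mare 1 or 4 or without the day 12 array of mare 1, with adjusted p up to 0.148. In the 10 arrays alone its adjusted p was 0.0676, with slide 0.115 and with scan day 0.108. Of 30 listed WNT genes 5 were tested, 1 rose and 0 fell by limma, the same counts as at an unadjusted p under 0.05, and their median was 0.32.

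Transport genes moved in both directions. CFTR, the chloride channel of secretory epithelia, had 1.25, 1.53, 2.14, 3.38 and 1.96 at day 16 and -0.18, 0.28, -0.23, 0.20 and 1.25 at day 12. The highest day 12 level, that of mare 5, reached the lowest day 16 level, and each mare was higher at day 16. CFTR rose by 1.79 ± 0.34 (adjusted p = 0.00192 by limma). The iron carrier SLC11A1 of phagocytes had -1.35, -1.33, -1.54, -1.39 and -1.04 at day 16, against -0.66, -0.65, 0.03, 0.54 and -0.63 at day 12. It fell without overlap by 1.05 ± 0.19 (adjusted p = 0.000965), most in mares 3 and 4, and in a fit of the 10 arrays alone the adjusted p was 0.068. TFRC, the transferrin receptor for iron uptake, had -5.36, -4.39, -3.36, -3.15 and -5.23 at day 16 and -5.60, -6.09, -5.63, -7.48 and -5.60 at day 12. It rose by 1.78 ± 0.52 (adjusted p = 0.0309), by 4.33 in mare 4 and by under 1 in mares 1 and 5. Without mare 4 its change was 1.15 (adjusted p = 0.186), and the call held only without mare 1 or 5, without the day 16 array of mare 1 or 5 or without the day 12 array of mare 1, 2 or 3. Its adjusted p was 0.114 in the 10 arrays alone, 0.092 with slide and 0.0804 with scan day as a further block, and with normexp its change was 0.83 (adjusted p = 0.0309). The sodium-glucose carrier SLC5A1 rose by 0.97 ± 0.30 (adjusted p = 0.0384). That call held only without the day 16 array of mare 1, 4 or 5, and its adjusted p was 0.192 without the mare block, 0.0505 without the filter on dim probes, 0.108 with slide and 0.112 with scan day as a further block. Of 42 listed transport genes 11 were tested, 3 rose and 1 fell, with a median of 0.22.

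In sugar and lipid metabolism, 11 of 44 genes were tested, 1 rose and 2 fell, with a median of -0.10. PLIN2, which coats lipid droplets, had 3.13, 2.98, 3.54, 2.75 and 3.25 at day 16, against 4.40, 4.67, 4.26, 5.10 and 4.43 at day 12. The groups did not overlap, and the fall was 1.44 ± 0.20, 2.72-fold (adjusted p = 0.000128 by limma). Hexokinase 2 (HK2), which traps glucose in the cell, had -3.94, -3.78, -3.57, -3.62 and -4.37 at day 16 and -1.64, -2.26, -2.92, -3.05 and -2.68 at day 12. It fell by 1.34 ± 0.30 (adjusted p = 0.00668), without overlap, and with slide as a further block the adjusted p was 0.0724. LDHA, a subunit of lactate dehydrogenase, had 0.82 ± 0.24 (adjusted p = 0.0337), higher by 1.93 in mare 4 and lower by 0.11 in mare 1. Its call held only without mare 1, without the day 16 array of mare 1 or 5 or without the day 12 array of mare 1 or 2, with adjusted p up to 0.133, and without the mare block its adjusted p was 0.0583. In the 10 arrays alone it was 0.131, with slide 0.179 and with scan day 0.127.

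Cytoskeletal and adhesion genes also moved in both directions. The myosin heavy chain MYH7 had 1.24, 0.65, 1.48, 0.94 and 0.25 at day 16 and -1.88, -0.34, -1.35, -0.95 and -0.61 at day 12. It rose by 1.94 ± 0.39 (adjusted p = 0.00309), without overlap and most in mares 1 and 3. Gelsolin (GSN), which cuts actin filaments, had 3.41, 3.51, 3.58, 3.46 and 4.17 at day 16, against 4.95, 4.76, 4.58, 4.81 and 4.39 at day 12. The groups came closest in mare 5 and did not overlap, and the fall was 1.07 ± 0.23 (adjusted p = 0.00408). TAGLN, an actin-binding protein of smooth muscle, rose by 1.46 ± 0.34 (adjusted p = 0.0087), and without mare 2 (1.32) or mare 3 (1.25) the adjusted p was 0.0736 and 0.0773. With slide as a further block it was 0.112 and with scan day 0.0635. Of 46 listed cytoskeletal genes 7 were tested, 3 rose and 1 fell, with a median of 0.30, and ACTB, the beta-actin gene, had -0.02.

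CD44, the receptor for the matrix sugar hyaluronan, had 0.55, 0.43, -0.01, 0.78 and -0.07 at day 16 and -0.62, -0.65, -0.92, -0.69 and -1.06 at day 12. It rose by 1.12 ± 0.23 (adjusted p = 0.00315 by limma), by similar amounts in the 5 mares and without overlap. VCAM1, an adhesion molecule for leukocytes, had -0.22, -0.16, -0.63, -0.01 and -0.48 at day 16 and 0.49, 0.96, 0.90, 0.87 and 0.64 at day 12. It fell by 1.07 ± 0.18 (adjusted p = 0.000658), and the 2 groups stood on either side of the 75th percentile. Of 41 listed adhesion genes 8 were tested, 1 rose and 1 fell, with a median of -0.07. Among 7 tested of 42 genes of blood vessel growth and tone 0 passed by limma in either direction, and 1 higher and 2 lower had an unadjusted p under 0.05. Of 42 cell cycle and apoptosis genes only 2 were tested, and 0 passed in either direction by limma, also at an unadjusted p under 0.05.

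Outside these lists, CTTNBP2, which binds the actin regulator cortactin and is best known in neurons, had 0.56, 0.94, 0.96, 0.57 and 1.65 at day 16 and 3.05, 3.16, 3.36, 2.85 and 3.10 at day 12. The groups stood over 1 log2 unit apart, and mare 5 changed least. It fell by 2.17 ± 0.21, 4.50-fold, with an adjusted p of 5.57e-06 by limma. HTR1B, a serotonin receptor, fell by 1.31 ± 0.33 (adjusted p = 0.013), and without mare 2 the change was -1.08 (adjusted p = 0.0717) and without the day 12 array of mare 4 -1.09 (adjusted p = 0.0552). With slide as a further block its adjusted p was 0.0849 and with scan day 0.119. The aquaglyceroporin AQP10 fell by 1.13 ± 0.28 (adjusted p = 0.0135), and its 4 further probes were lower without passing. Its call did not hold without mare 2 (-1.01), mare 5 (-1.02) or the day 16 array of mare 2 (-0.93), with adjusted p between 0.0539 and 0.0934, nor without the mare block (adjusted p = 0.138). With slide its change was -0.82 (adjusted p = 0.08), with scan day -0.78 (adjusted p = 0.0757) and with normexp -0.66 (adjusted p = 0.076). LY49F, a receptor of natural killer cells, fell by 1.18 ± 0.34 (adjusted p = 0.0311). Its call did not hold without mare 2, 3 or 5, without either array of mare 2 or without either array of mare 5 (adjusted p up to 0.16), and its other probe had -0.35. Without the mare block the adjusted p of LY49F was 0.118, and in the 10 arrays alone 0.0923. With slide its change was -0.58 (adjusted p = 0.24) and with scan day -0.63 (adjusted p = 0.192).

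CA12, a membrane carbonic anhydrase that handles acid and bicarbonate, was well above background in 4 of 5 mares at day 16 and in 0 of 5 at day 12. Its measured levels were -6.28, -6.57, -5.34, -6.71 and -9.12 at day 16, against -8.87, -9.26, -9.70, -10.25 and -9.53 at day 12, and mare 5 did not stand out from day 12. The fitted change was 2.72 ± 0.84 (adjusted p = 0.043 by limma). With the day 12 level taken as for CXCL8, the day 16 mean, mare 5 included, was 1.68-fold higher. This too is not a firm lower bound. The call held only without mare 5 or without the day 16 array of mare 1 or 5, with adjusted p up to 0.161, and without the mare block it was 0.0525. With normexp the change was 0.29 (adjusted p = 0.404). The adjusted p was 0.0802 with quantile normalization, 0.0554 without the filter on dim probes, 0.165 with slide and 0.144 with scan day as a further block. Further probes of CA12 had changes of 2.71, 2.76, 2.91 and 2.54. Their adjusted p was 0.00383, 0.00437, 0.00647 and 0.036 by limma, and they were not read in the refits. CHGA, or chromogranin A, a protein of secretory granules of neuroendocrine cells, is named after its values were seen, since mare 1 moved the other way. It had -0.25, 3.07, 4.10, 1.38 and 3.10 at day 16 and 0.40, -2.76, 1.37, -1.88 and -4.73 at day 12. The change was 3.80 ± 0.86 (adjusted p = 0.00669), from -0.66 in mare 1 to 7.83 in mare 5. CHGA was not read singly in the refits, so how far its call rests on single mares or on slide was not tested.

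Among probes known here only by an Ensembl transcript, rises and falls beyond those of the named genes were fitted. The transcript ENSECAT00000026721 rose by 4.94 ± 0.67 and ENSECAT00000012330 by 4.87 ± 0.86 on the log2 scale. Both were well above background in only 1 of 5 mares at day 12, so that these sizes rest on dim day 12 levels. ENSECAT00000019537 was well above background in 0 of 5 mares at day 16, where it was at least 102-fold lower than at day 12, and ENSECAT00000002160 was at least 60.7-fold lower. These 4 were the largest rises and falls among the called Ensembl probes that moved alike in all 5 mares.

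Markers of cell types were read beside these changes, as far as they had a tested probe. The stromal marker LUM rose, and the other stromal marker, decorin (DCN), had a change of 0.65 (adjusted p = 0.0719 by limma). The smooth muscle marker TAGLN rose. TPSB2, a tryptase of mast cells, had -1.65, -2.95, -4.40, -4.18 and -0.07 at day 16, against -0.24, -0.98, -2.11, -2.00 and 1.59 at day 12. The mares of a day spread over more than the change between the days, so that the groups overlapped, and each mare was lower at day 16 by between 1.40 and 2.29. It fell by 1.90 ± 0.34 (adjusted p = 0.000976), and without the mare block the adjusted p was 0.2. FCER1A, a subunit of the IgE receptor of mast cells, had -0.21 and did not pass. The epithelial marker ESRP1 had -0.19, the ciliary marker DYDC1 -0.31, the endothelial marker PECAM1 -0.34 and the haemoglobin gene HBA2 -0.48, and none of these passed. Of 4 markers of T and natural killer cells (CD2, GZMB, GNLY, CCL5) and 3 of macrophages (CD14, CD68, ITGAX), 0 passed in either direction by limma, also at an unadjusted p under 0.05. Markers of B cells and neutrophils had no named probe among those tested. The part of cell composition in the changes above was not tested.

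The mares differed in how far the calls showed in them. Of probes called in fits without the mare in question, the share that moved the same way in it was 85.7% in mare 1, 97.3% in mare 2, 97.6% in mare 3, 89.5% in mare 4 and 83.6% in mare 5. The median change along the call in mare 1 was 0.736, against 1.23 in the other mares, and in mare 5 it was 0.72, against 1.30. In mares 2, 3 and 4 it was 1.27, 1.11 and 1.08, against 1.34, 1.31 and 1.17 in their other mares. Mare 1 had small changes in TIMP1, PLA2G4A, TFRC and MET, and mare 5 in PLA2G2A, LUM, CXCL10 and CA12. In other genes these mares changed most, mare 1 in ESR1, MYH7, HK2 and the uncalled P19, and mare 5 in CHGA and CYP3A97. These examples were picked after their values were seen. Over the leave-outs, between 1921 and 4469 probes passed, with 1921 without mare 2, 2167 without mare 3, 2560 without the day 12 array of mare 4 and 4469 without the day 16 array of mare 1. Of 48 called genes with a name in this account by the naming rule, 21 held their call in all 25 refits, that is 15 leave-outs and 10 other settings. They included CCL2, CD44, CFTR, CXCL10, LUM, MYH7, PLA2G2A, PLA2G4A and SPI2 among the risen, and CTTNBP2, CYP3A89, CYP3A97, FST, GSN, INHA, LGB1, PLIN2, POR and VCAM1 among the fallen.

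**Figure D3:**
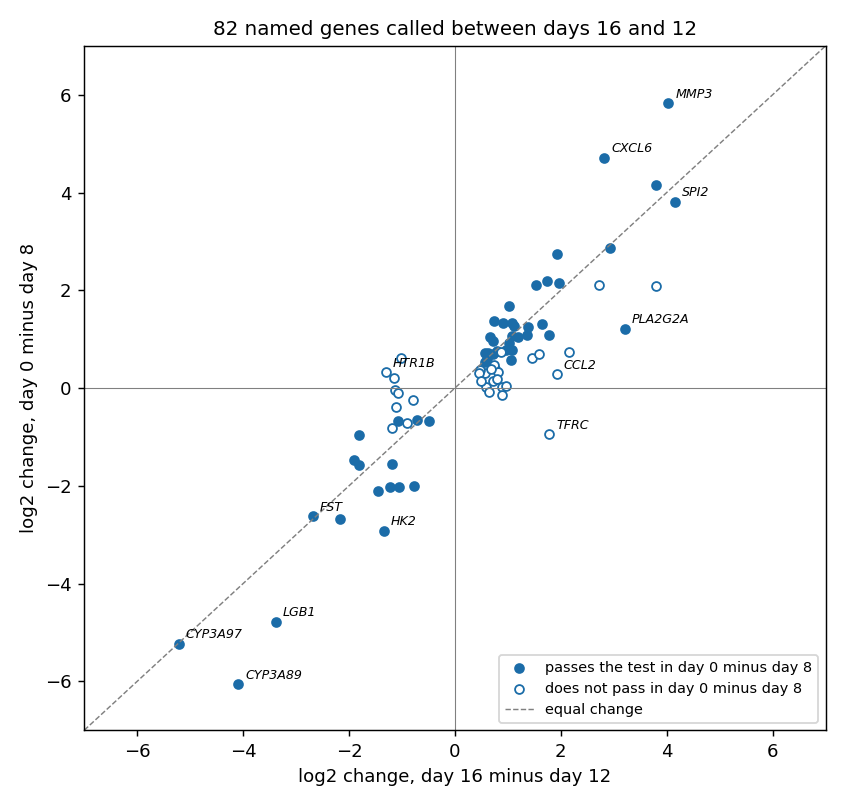
The 82 named genes called between days 16 and 12, with the log2 change of day 16 minus day 12 on the x axis and that of day 0 minus day 8, from other arrays of the same mares, on the y axis. Filled points pass the test in day 0 minus day 8 and open points do not, and the dashed line marks equal change. Most points have the same sign on both axes, and TFRC and HTR1B are among those that do not.

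The same genes were read in 10 other arrays of the 5 mares, comparing day 0, which the labels call the ovulatory phase, with day 8, the mid luteal phase. In that comparison 9311 probes passed (26.0%), 4975 higher (13.9%) and 4336 lower (12.1%) at day 0, and without mare 2 or mare 5 these were 5959 and 6110 probes. Of the 56 named genes that rose at day 16, 34 were also called higher at day 0 and 0 were called lower by limma. Of the 26 that fell, 17 were also called lower at day 0 and 0 higher. Among all called probes, 1040 of the 1817 risen (57.2%) and 1339 of the 2179 fallen (61.5%) were called the same way, and 7 and 18 the opposite way. FST had a change of -2.62 in day 0 minus day 8, and its probe was well above background in all mares on these days.

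A test of the difference between the 2 changes passed for 641 probes (1.79%). It passed for 0 of the 56 risen named genes and for 1 of the 26 fallen, FAM133B, a gene of little-known function named here after its values were seen, with -0.78 in day 16 minus day 12 and -2.00 in day 0 minus day 8. FAM133B was not read singly in the refits. P19 had -1.14 in day 16 minus day 12 and -4.09 in day 0 minus day 8, a difference of 2.95 ± 0.68 (adjusted p = 0.0408 by limma). The call of P19 held in 3 of the 15 leave-outs, those without mare 1 or without the day 16 array of mare 1 or 3, with adjusted p up to 0.207, and without the mare block its adjusted p was 0.0542 and with slide as a further block 0.254. For TFRC the difference was 2.73 ± 0.73 (adjusted p = 0.0581), for PLA2G2A 1.99 ± 0.60 (adjusted p = 0.0807) and for CCL2 1.64 ± 0.55 (adjusted p = 0.111). The count of 641 varied with the mares in the fit, and the reason was not tested. It was 0 by limma without mare 2, where 4553 probes had an unadjusted p under 0.05, 1 without mare 3 and 6 without mare 5. Without mare 1 it was 554 and without mare 4 it was 657. With slide as a further block it was 5, and it was 1637 when the day 16 array of mare 1 was left out.

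**Figure D4:**
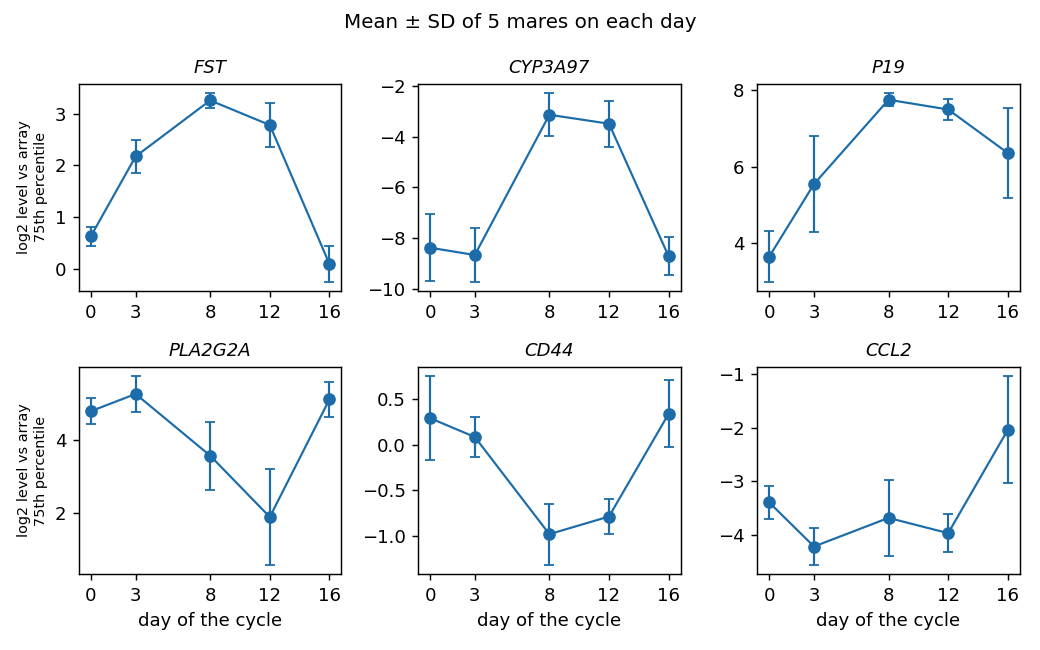
Mean ± SD of the log2 level over 5 mares on days 0, 3, 8, 12 and 16, for 3 genes with a lower mean (FST, CYP3A97, P19) and 3 genes with a higher mean (PLA2G2A, CD44, CCL2) at day 16 than at day 12. FST and CYP3A97 were high on days 8 and 12, P19 at day 16 stood between day 12 and day 0, and CCL2 had its highest mean on day 16.

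Levels were also read over the 5 days, for genes called between days 16 and 12 and for P19, which was not called. FST averaged 0.63 ± 0.18, 2.17 ± 0.32, 3.25 ± 0.14, 2.78 ± 0.42 and 0.09 ± 0.34 on days 0, 3, 8, 12 and 16 (SD, n = 5 mares each). It was high on days 8 and 12 and low on days 0 and 16. CYP3A97 averaged -8.37, -8.66, -3.14, -3.49 and -8.71 on the same days, and was well above background in 5 of 5 mares only on days 8 and 12. P19 averaged 3.65 ± 0.66, 5.54 ± 1.25, 7.74 ± 0.17, 7.49 ± 0.27 and 6.35 ± 1.18, so that its day 16 mean stood between those of days 12 and 0. PLA2G2A was lowest on day 12, with means of 4.78, 5.25, 3.56, 1.89 and 5.10. CCL2 averaged -3.39, -4.21, -3.68, -3.96 and -2.04, and its day 16 mean was the highest of the 5. GSN averaged 3.00, 3.12, 3.10, 4.70 and 3.62, with its highest mean on day 12. These orders are descriptions, and the differences between other days were not tested here.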

How the data were processed

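The 25 one-colour Agilent arrays carried Cy3-labelled copies of Trizol-extracted RNA, per the labels' protocols. The authors deposited the intensity of each spot, from which the scanner software (Agilent Feature Extraction, version 10.7.3.1 in the submitters' processing notes) had subtracted background within the array, per the file headers. No step between arrays is recorded. The deposited value table, with unstated processing, equalled the processed signal in all 25 arrays, on a linear scale without centring.

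From these, log2 signals minus each array's 75th percentile were computed, spots with an outlier mark were left out and repeated spots of a probe averaged. Probes well above background on at least 4 of 5 arrays of some day were tested, 35770 of 43603. The comparison was fitted in limma 3.58.1 (R 4.3.3) over 25 arrays, with day and mare as terms, 16 residual degrees of freedom, two-sided moderated tests and Benjamini-Hochberg adjustment. The same numbers mark the same mare, per the labels. Deviations from day means correlated by 0.245 (median) between arrays of a mare and by -0.0462 between mares, and between day 16 and day 12 by -0.0602 in mare 2 and by 0.235 to 0.455 in the other mares. Where the mare shared no slide the median was 0.12. P-values measure the spread between biopsies of these 5 mares. The steps were tested on simulated data, and Python 3.11.15 with numpy 2.4.6, pandas 2.3.3 and matplotlib 3.10.9 was used for tables and figures.

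Symbols came from RefSeq genes matched by accession (1243 probes, 584 genes), and LOC symbols counted as identifiers. The 32565 Ensembl, 6468 GenBank or EST and 1724 unmatched probes have no symbol here, and no sequence or position was used. A gene stands by its probe with the highest mean. Named were the 15 largest rises and 15 largest falls among genes called and moving alike in 5 mares, up to 6 called members of each list, and always ESR1, PGR, OXTR, PTGFR, PTGS2 and P19 where tested. Some genes chosen this way are not reported here. The members, lists and tests were chosen with earlier results of these data known. Alternatives were other normalization, background correction, filters, blocks, arrays and probes, and leaving out each mare or array. The 5 arrays per day limit the precision.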

Additional observations from a re-analysis of the deposited data

Results flagged for a closer look

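In 11 of 102 groups of 5 arrays (51 genes on 2 days), 1 mare stood apart from the other 4 by Dixon's test, where chance marks about 5% of such groups. Mare 4 was apart in 6 of these 11. At day 16 it was high in IL1R2, with -2.95 against -6.16 to -5.25 in the other mares, and in LDHA, with 1.32 against -0.28 to 0.16. At day 12 it was high in IL1R2, with -5.07 against -8.45 to -7.54, and in PTGER2, with 2.79 against 2.16 to 2.27. It was low at day 12 in PTGFR, with -5.82 against -4.35 to -4.02, and in TFRC, with -7.48 against -6.09 to -5.60.

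Mare 1 was low in MET at day 16, with 3.34 against 4.73 to 5.02, and in FST at day 12, with 2.03 against 2.94 to 2.98. It was high in PLA2G4A at day 12, with -0.40 against -1.77 to -1.58. Mare 5 was high in GSN at day 16, with 4.17 against 3.41 to 3.58, and low in PTGS2 at day 12, with 0.36 against 1.12 to 1.39.

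P19 differed between the 2 comparisons of oestrus with the luteal phase. Its change was -1.14 in day 16 minus day 12, which did not pass, and -4.09 in day 0 minus day 8, a difference of 2.95 on the log2 scale (adjusted p = 0.0408 by limma). That call held in 3 of the 15 leave-outs and not with slide as a further block (adjusted p = 0.254).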

How the results depend on the processing

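Without the mare as a replicate block 2888 probes passed (1380 higher, 1508 lower), of which 2872 were among the 3996, and 57 of the 82 named genes kept their call. Fewer probes passed in the fit of the 10 arrays alone (1787, with 672 higher, 1115 lower and 41 named genes called), with mare and slide as blocks (1733, 782, 951 and 37) and with mare and scan day as blocks (2093, 954, 1139 and 45). The 41 are all named genes called in the fit of the 10 arrays, where 37 of the 82 kept their call. A 2-fold minimum left 2186 (936, 1250 and 50 named genes), and 1 probe per target 2074 (811 and 1263), from fewer probes. Quantile normalization gave 4430, of which 53.4% were higher, against 45.5%. Leaving out a mare or array gave 1921 to 4469 probes, 871 to 2079 higher, 1050 to 2588 lower and 43 to 90 named genes. Day 0 minus day 8 gave 2425 with slide, 4465 with the 2-fold minimum, 4910 with 1 probe per target and 5959 to 9902 over the leave-outs. The difference of the 2 changes passed for 210 without the block, 250 without the filter, 5 with slide, 7 with scan day, 414 with 1 probe per target and 0 to 1637 over the leave-outs. That of P19 lay between 2.60 and 3.31, with adjusted p up to 0.254. Over the leave-outs PTGS2 changed by -0.37 to 0.51: it was -0.26 without mare 4, -0.07 without mare 5, -0.37 without the day 16 array of mare 4 and -0.06 without that of mare 5. Within slides, LDHA had -0.11 and MET -0.01 in mare 1 and PTGER2 0.32 in mare 4. The causes of these shifts were not tested. With normexp the changes of AQP10, CA12, COL5A2, CXCL6, CXCL8, CYP3A97, IL10, IL1R2, INHA, LGB1, MMP3 and TFRC were smaller by over 1.5 times. Of these, CA12, CXCL8, CYP3A97, IL1R2, LGB1 and MMP3 had probes above background in at most 1 of 5 arrays of a day. The change of PTGFR, which was not called, was also smaller by over 1.5 times with normexp, at -0.65.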

Other observations

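Other named genes outside the naming rule passed the test. The receptor of interleukin 7, IL7R, which sustains T cells, had -4.12, -6.25, -6.11, -5.97 and -5.90 in mares 1 to 5 at day 16, against -4.48, -3.42, -5.48, -5.05 and -4.79 at day 12. It was lower at day 16 in 4 mares and higher in mare 1, with a change of -1.02 ± 0.33 (adjusted p = 0.0498 by limma). In day 0 minus day 8 its change was 0.61 and did not pass. AKR1C1, an aldo-keto reductase of steroids and prostaglandins, had -0.94 at its brightest probe without passing, while another of its probes fell by 2.58 (adjusted p = 0.0415). Whether the probes of AKR1C1 read different members of its family was not tested. These genes were picked after their values were seen and were not read singly in the refits.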
